A study of Caenorhabditis elegans with 2 samples.

Results

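The proteins of the mitochondrial ribosome are encoded in the nucleus of Caenorhabditis elegans by genes named mrpl, for the large subunit, and mrps, for the small subunit. These genes were chosen by name, as all protein-coding genes of the annotation called mrpl- or mrps- followed by a digit, and they came to 70 of 19973 coding genes, 41 mrpl and 29 mrps. The question was whether the chromatin protein C17E4.6, which carried a TY1, EGFP and 3xFLAG tag inserted by CRISPR into its own gene in strain RW12293, was found at their promoters. Whole young adult animals, labelled as 62 hours old and synchronised by bleaching and starvation at the L1 larval stage, were fragmented by sonication, and DNA bound by the tagged protein was recovered with anti-GFP antibody and sequenced. The 2 biological replicates formed 1 group of the same strain, age and tag, and no untagged or input sample was analysed here. The whole animals hold germline and body cells together, so a site used in few cells cannot be told apart from a site used weakly in many.

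Mitochondrial ribosomes make the few proteins that the mitochondrial genome encodes, all of them subunits of the respiratory chain and the ATP synthase, and their own proteins are made in the cytosol and imported. Part of the set descends from bacterial ribosomal proteins and part is found only in mitochondria. In C. elegans the set is known for mrps-5, whose knockdown lengthens life and switches on the mitochondrial unfolded protein response. C17E4.6 is the worm relative of VPS72, also called YL1, which in mammals belongs to the machinery loading H2A.Z into chromatin. Many worm genes are transcribed in operons, several genes from 1 promoter, and the messages are then cut apart by trans-splicing, so the annotated 5' end of a gene can be a splice site and not the start of transcription.

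The files held peak lists. A thresholded list of 1017 peaks and a ranked list of 65464 peaks came from both replicates together, and each replicate had its own pair (570 and 43313 peaks in replicate 1, 414 and 45592 in replicate 2). The score of a peak, from the irreproducible discovery rate (IDR), runs up to 1000, and a score of 830 stands for an IDR of 0.01 and 540 for 0.05. The lowest score of the combined ranked list, 28, was shared by 29550 of its peaks, so that a ranked peak on its own can be very weak. The signal of a peak is the authors' own value on a scale that is not stated. Read depth is unknown. The promoter window of a gene ran from 500 bp before its 5' end to 200 bp after it, and a gene was counted if the window held a summit. Summit positions are given relative to the 5' end, negative when upstream.

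The sites that carry the result are shown first: the best ranked summits of 4 of the 5 members of highest score, which had weak peaks, and those of the 2 cytosolic ribosomal protein genes of highest signal, which had strong ones. Each is 201 bases of assembly ce11 (WBcel235, RefSeq copy), read in the direction of the gene, and the capitals mark the 21 bases centred on the summit.
mrpl-28 (chrII:155996-156196, strand -): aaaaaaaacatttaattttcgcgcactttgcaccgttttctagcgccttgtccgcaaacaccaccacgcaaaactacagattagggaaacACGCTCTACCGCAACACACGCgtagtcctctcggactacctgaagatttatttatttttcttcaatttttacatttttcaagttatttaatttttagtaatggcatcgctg
mrpl-55 (chrIV:443699-443899, strand +): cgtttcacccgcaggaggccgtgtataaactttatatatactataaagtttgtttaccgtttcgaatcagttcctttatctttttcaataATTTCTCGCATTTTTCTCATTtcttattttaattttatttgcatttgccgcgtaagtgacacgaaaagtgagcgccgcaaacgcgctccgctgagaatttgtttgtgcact
mrps-35 (chrV:18981105-18981305, strand +): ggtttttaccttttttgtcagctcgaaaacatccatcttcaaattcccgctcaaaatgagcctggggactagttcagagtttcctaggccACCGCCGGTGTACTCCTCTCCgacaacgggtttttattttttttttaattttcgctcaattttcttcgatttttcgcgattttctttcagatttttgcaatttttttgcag
mrps-21 (chrIV:4659315-4659515, strand -): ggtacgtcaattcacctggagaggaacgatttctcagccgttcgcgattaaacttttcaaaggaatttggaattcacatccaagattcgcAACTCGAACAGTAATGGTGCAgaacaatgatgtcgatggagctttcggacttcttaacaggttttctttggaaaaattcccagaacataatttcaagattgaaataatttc
rpl-3 (chrIII:3867474-3867674, strand +): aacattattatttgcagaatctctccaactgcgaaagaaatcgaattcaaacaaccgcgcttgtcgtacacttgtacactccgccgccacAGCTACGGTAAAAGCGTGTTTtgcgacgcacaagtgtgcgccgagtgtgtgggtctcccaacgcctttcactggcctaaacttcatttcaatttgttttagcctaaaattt
rpl-35 (chrIII:7854596-7854796, strand +): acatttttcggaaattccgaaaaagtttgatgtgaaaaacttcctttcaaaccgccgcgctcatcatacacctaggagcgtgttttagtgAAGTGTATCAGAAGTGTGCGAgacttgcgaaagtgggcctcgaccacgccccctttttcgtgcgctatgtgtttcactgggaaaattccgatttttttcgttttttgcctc
The GC content was 38.3% at mrpl-28, 37.8% at mrpl-55, 39.3% at mrps-35 and 38.8% at mrps-21, and 45.3% at rpl-3 and 44.8% at rpl-35. The mrps-21 window lies inside that short gene, the mrps-35 window ends at the base before its 5' end, and the windows of rpl-3 and rpl-35 lie wholly upstream of theirs.

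No mitochondrial ribosomal protein gene had a thresholded peak at its promoter. The count was 0 of 70 in the combined list, 0 of 70 in each replicate's own list and 0 of 70 in the conservative list, an alternative deposited list from both replicates. Of all coding genes, 558 (2.79%) had one in the combined list, 344 (1.72%) in replicate 1, 268 (1.34%) in replicate 2 and 531 (2.66%) in the conservative list. A count of 0 of 70 allows a share of up to 4.29% by the limit of 3 counts, which covers counting error only, so the members were not distinguished from coding genes at large by this count. The cytosolic ribosomal protein genes, named rpl and rps, had 25 of 78 (32.1%), a share above that limit. No thresholded summit lay anywhere inside a member gene either.

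Below the threshold, weak peaks were found at most of the members. In the combined ranked list 44 of 70 (62.9%) had a summit in the window, beside 42.9% of all coding genes and 74 of 78 (94.9%) of the cytosolic set. The median best score, with genes lacking a summit at 0, was 28 in the members, 0 over all coding genes and 391 in the cytosolic set. Scores from 200 to 539 were reached by 10 members (14.3%), scores from 100 to below 200 by 12 (17.1%) and scores from 1 to 99 by 22 (31.4%), and the other 26 (37.1%) had no summit. Over all coding genes these shares were 5.04%, 7.17%, 26.4% and 57.1%. At an IDR of 0.05 or less there was no member (0 of 70), while 4.32% of all coding genes and 29 of 78 cytosolic genes (37.2%) reached it. In each replicate alone the count was also 0 of 70, beside 2.77% of coding genes in replicate 1 and 2.05% in replicate 2, and in the conservative ranked list it was 1 of 70 (1.43%, beside 4.12%), mrpl-17. The members thus had larger shares in each weak class than coding genes at large, and none at 540 or more. No test was made of these differences, because the list was taken up with earlier results of these data known.

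**Figure D1:**
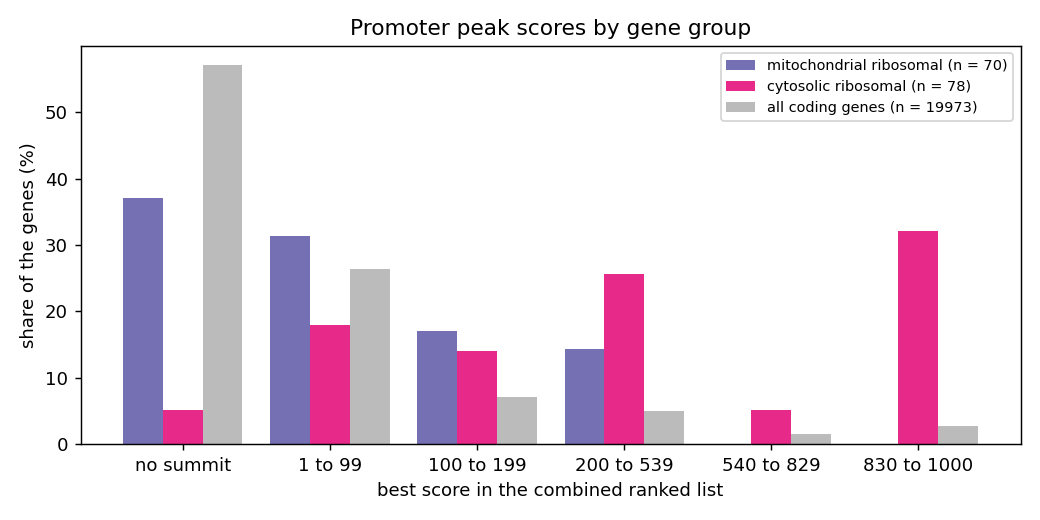
Share of genes (y axis, percent) by the best score in the promoter window of the combined ranked list (x axis), for 70 mitochondrial ribosomal, 78 cytosolic ribosomal and all 19973 coding genes. The mitochondrial set ends below 540, while 32.1% of the cytosolic set lies at 830 or more.

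Neither replicate had a strong peak at a member, and the weak ones often lay at different places in the 2 replicates. Replicate 1 had a ranked summit at 42 members (60%, beside 33.2% of coding genes), with a highest score of 505, and replicate 2 at 30 (42.9%, beside 34.1%), with a highest score of 264. Both had one at 25 members (35.7%, beside 18.6%). At 10 of these their best summits lay within 100 bp of each other, and the median distance was 149 bp. The like values over all coding genes were not computed, so this spread is not given as a trait of the members. Of the 44 members with a combined summit, 23 had one in both replicates, 13 in replicate 1 alone, 4 in replicate 2 alone and 4 in neither. This split was not computed over all coding genes. A further 7 members had a summit in a replicate but not in the combined list, and 19 (27.1%, beside 44.4% of coding genes) had none in any of the 3 lists, 15 mrpl and 4 mrps.

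**Figure D2:**
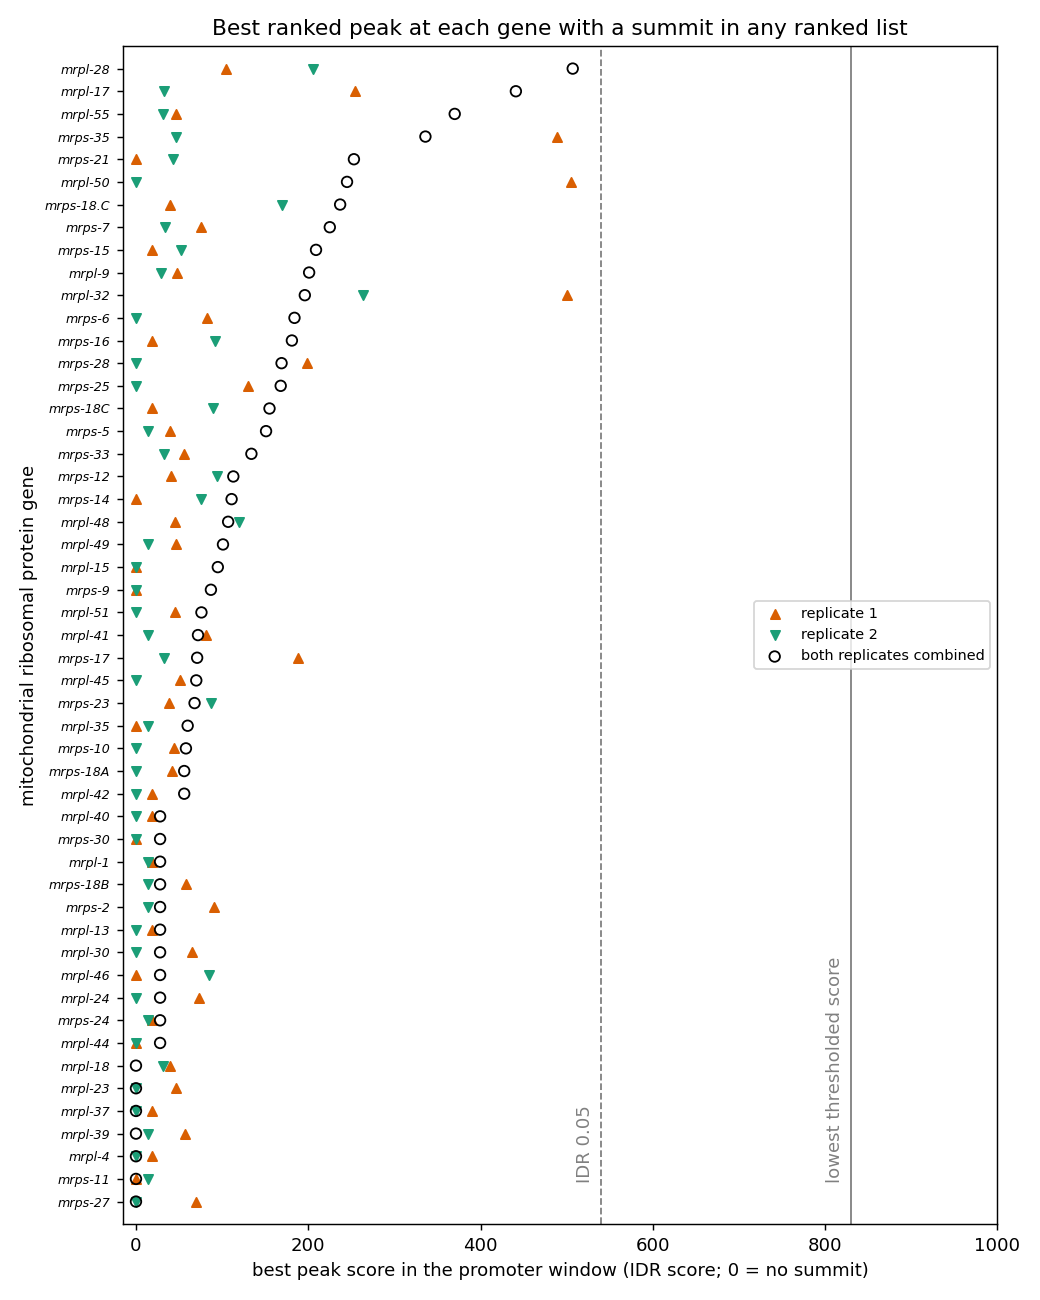
Best peak score in the promoter window (x axis, 0 where there was no summit) for each of the members with a summit in at least 1 of 3 ranked lists (y axis), in both replicates combined (circles), replicate 1 (upward triangles) and replicate 2 (downward triangles). No symbol reaches the dashed line at an IDR of 0.05, and the highest, 507, belongs to mrpl-28.

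The replicate scores given for a gene are those of the best summit anywhere in its window, which need not be the combined summit. Among the 12 members of highest score, the best summit lay within 100 bp of the combined one in replicate 1 at 8, in replicate 2 at 7 and in both at 4. Such counts were not made for other genes.

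Among the proteins of the large subunit, mrpl-28 stood highest. It lies on chromosome II from 154881 to 156009 on the minus strand, and its product is named bL28m by RefSeq, a protein with a bacterial counterpart. Its peak had a combined score of 507 (an IDR of 0.0601) and a signal of 45.7, with the summit at -87 bp. The scores were 104 in replicate 1 and 206 in replicate 2, with signals of 24.0 and 25.6, so both replicates were below the score of 540. Their summits lay at -92 bp in replicate 1 and at 32 bp inside the gene in replicate 2. Of all coding genes, 4.54% had a best score at least as high.

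Next came mrpl-17 (bL17m), on chromosome I, with a score of 441 and the highest signal among the members, 55.3, at a summit 114 bp inside the gene. Its scores were 254 in replicate 1 and 32 in replicate 2, so replicate 1 was the higher. Against that signal, 86 of the 1017 thresholded peaks (8.46%) were as low or lower, and so were 0 of the 24 thresholded peaks at cytosolic ribosomal promoters, whose lowest signal was 58.95. The gene mrpl-55, on chromosome IV, had a score of 370 and a signal of 43.8 at -186 bp, with scores of 46 in replicate 1 and 31 in replicate 2.

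The gene mrpl-50, for the mitochondria-specific protein mL50, had a score of 245 at 13 bp inside the gene. This rested on replicate 1, which scored 505, while replicate 2 had no summit there. At mrpl-9, for bL9m, whose bacterial counterpart forms a stalk at the side of the large subunit, the score was 201 at -136 bp, with 48 in replicate 1 and 29 in replicate 2. The gene mrpl-32 encodes bL32m, a protein whose yeast counterpart must be cut by the mitochondrial m-AAA protease before it can enter the ribosome. Its combined score was 196 at -462 bp, and replicate 2 scored 264 at -464 bp. The best summit of replicate 1, with a score of 500, was another peak at -151 bp, 313 bp from that of replicate 2.

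Of the small subunit, mrps-35 (mS35, specific to mitochondria) was highest, with a score of 336 and a signal of 36.2 at -101 bp. The best summit of replicate 1 scored 489 at 34 bp inside the gene and that of replicate 2 scored 47 at -433 bp, so neither lay within 100 bp of the combined summit. The gene mrps-21 had a score of 253 at 102 bp inside the gene, with no summit in replicate 1 and a score of 43 in replicate 2, so each replicate alone was far below the combined score. The gene mrps-18.C, of the family of the bacterial S18 protein, had 237 at 28 bp inside the gene, with 39 in replicate 1 and 169 in replicate 2.

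The other 3 small subunit genes among the 12 encode uS7m, uS15m and bS6m. In bacteria uS7 and uS15 bind the ribosomal RNA early in assembly, and bS6 pairs with bS18. The gene mrps-7 had a score of 225 at -180 bp, with 75 in replicate 1 and 34 in replicate 2. The gene mrps-15 had 209 at -52 bp, with 19 in replicate 1 and 52 in replicate 2. The gene mrps-6 had 184 at -157 bp, with 82 in replicate 1 and no summit in replicate 2. None of the 12 reached an IDR of 0.05 in the combined list or in either replicate. Outside the 12, mrps-5 had a score of 151 at 67 bp inside the gene, with 39 in replicate 1 and 14 in replicate 2, and was named for its known role after its values were seen.

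Small subunit genes had weak peaks more often than large subunit genes. A combined ranked summit was present at 23 of 29 mrps genes (79.3%) and 21 of 41 mrpl genes (51.2%), with median best scores of 87 and 28, beside 42.9% of all coding genes. In replicate 1 the shares were 20 of 29 (69%) and 22 of 41 (53.7%), beside 33.2% of coding genes. In replicate 2 they were 17 of 29 (58.6%) and 13 of 41 (31.7%), beside 34.1%, so that the mrpl share there was below that of coding genes. The split was widest among the genes of low number, mrps up to 21 and mrpl up to 36, which mostly have bacterial counterparts: 16 of 17 (94.1%) against 10 of 24 (41.7%). Among the higher numbers, which are mostly specific to mitochondria, it was 7 of 12 (58.3%) against 11 of 17 (64.7%). The 2 names do not map cleanly on the subunits, since RefSeq gives the product of mrps-18C as uL3m, a large subunit protein. RefSeq also names the product of mrpl-48 after a small subunit domain, as a uS10 domain-containing protein. That domain name placed mrpl-48 among the universal names below. Both were seen after the genes had been grouped by name. By RefSeq product name, a ranked summit was present at 14 of 23 members (60.9%) with a universal name, 7 of 9 (77.8%) with a bacterial name, 13 of 19 (68.4%) with a mitochondrial name and 10 of 19 (52.6%) with none stated. These differences were not tested.

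The positions of the weak peaks were set beside those of the cytosolic set. The best summits of the 44 members were spread over the window, 25 upstream of the 5' end and 19 inside the gene, with a median position of -30 bp. That median depended on the list, at -103 bp in replicate 1, -48.5 bp in replicate 2 and -68 bp in the conservative list, and in replicate 1 66.7% were upstream, beside 69.9% of coding genes. In the cytosolic set 63 of 74 (85.1%) were upstream, and the summits had a median position of -277 bp. Over all coding genes 68.8% were upstream. The median signal was 32.3 in the members (range 7.35 to 55.3), 49.5 in the cytosolic set and 25.9 over all coding genes.

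**Figure D3:**
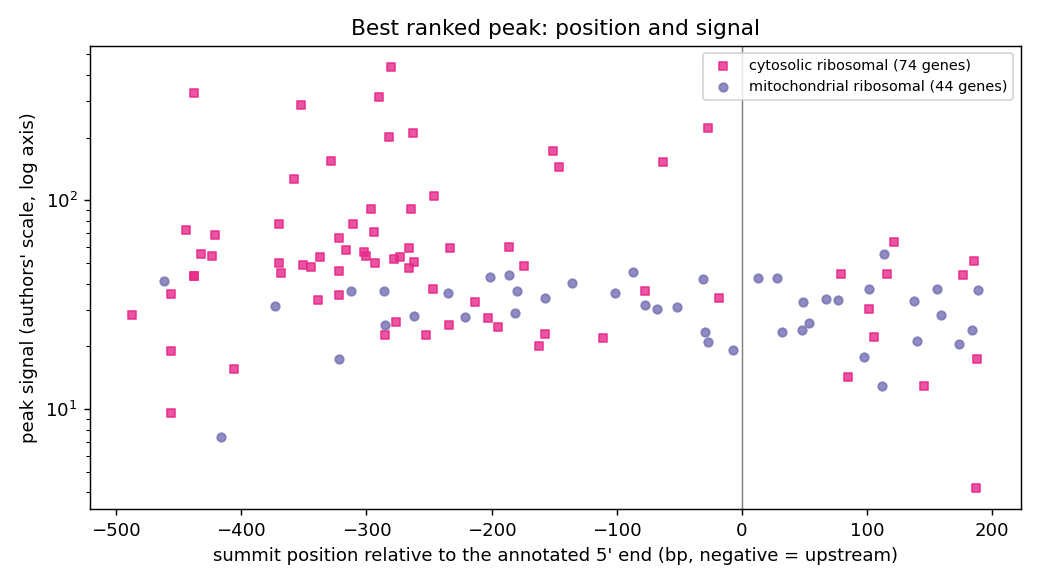
Signal of the best peak of the combined ranked list (y axis, authors' scale, log axis) against the position of its summit relative to the annotated 5' end (x axis, bp), for 44 mitochondrial (circles) and 74 cytosolic (squares) ribosomal protein genes. The mitochondrial set lies at 55.3 or below over the whole window, while the cytosolic set has its median position at -277 bp and reaches 435.

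The arrangement of the genes differed as well. Of the 70 members, 27 (38.6%) had a coding gene on the same strand that ended within 500 bp upstream, the spacing found in operons, against 8 of 78 cytosolic genes (10.3%) and 18.7% of coding genes. The median gap was 106 bp, and 19 of the 27 gaps lay between 80 and 120 bp. The gaps of all operon-like coding genes were not summarised. A further 26 members (37.1%) were head-to-head, with the 5' end of a gene on the other strand within 1000 bp, against 47 cytosolic genes (60.3%) and 17.7% of coding genes. No member was both. Operon-like members had a ranked summit in 17 of 27 (63%), head-to-head members in 18 of 26 (69.2%) and the others in 9 of 17 (52.9%). Over all coding genes these shares were 51.5%, 53.1% (head-to-head and not operon-like) and 37.6%. Whether an operon-like gene has a promoter of its own was not tested here.

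**Figure D4:**
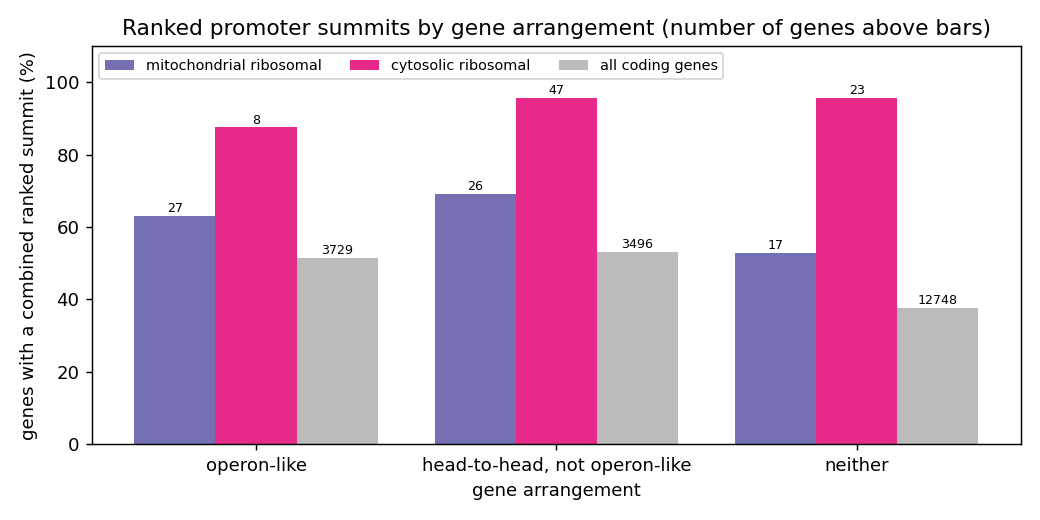
Share of genes with a summit in the combined ranked list (y axis, percent) by arrangement (x axis), with the number of genes above each bar. In each class the mitochondrial set (63%, 69.2% and 52.9%) lies between all coding genes and the cytosolic set.

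The genes that lead the operon-like runs were read as well. Of the 27 members, 3 (11.1%) stood in a run led by a gene with a thresholded promoter peak. Over all coding genes 2.79% had such a peak at their own promoter, which is a different count. The share of all operon-like coding genes with such a leading gene was not computed. Upstream of mrpl-32, by 411 bp, was rpn-3, a subunit of the regulatory particle of the proteasome. It had a signal of 144 and scores of 1000 in replicate 1 and 599 in replicate 2. That peak lay in the promoter window of hsp-110 as well. Upstream of mrpl-54, by 374 bp, was clsp-1, the claspin gene of the DNA replication checkpoint, with a signal of 137 and scores of 1000 in both replicates. This peak also lay in the promoter window of eef-2. The peaks at rpn-3 and clsp-1 can therefore not be assigned to the leading gene alone. Upstream of mrps-21, by 114 bp, was F29B9.11, with a signal of 120 and scores of 1000 in replicate 1 and 308 in replicate 2. For 18 of the 27 members (66.7%) the leading gene had a ranked summit, and 42.9% of all coding genes had one at their own promoter. Here too the like share over all operon-like coding genes was not computed. The 3 leading genes with a thresholded peak, and hsp-110, eef-2 and mrpl-54, were named after their values were seen.

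Head-to-head members mostly shared their weak peak with the neighbour. Of the 18 with a ranked summit, 15 had the same best peak as the gene facing away, such as mrps-15 with asg-1, a subunit of the ATP synthase (score 209 for both), mrpl-9 with kin-3, a casein kinase II subunit (201), and mrps-6 with rpn-8, a proteasome subunit (184). The weak peak can therefore not be assigned to either gene of such a pair. The median gap between the 5' ends was 379.5 bp over the 26 head-to-head members. Each window reached 500 bp upstream, so a summit between 5' ends at most 500 bp apart lay in both windows. The like share was not computed over all head-to-head coding genes or the cytosolic ones. The sharing is therefore not given as a trait of the members. No partner of the 26 had a thresholded peak, and the highest partner score was 738, at Y39A1A.22, whose 5' end lay 733 bp from that of mrpl-12, a pair named after its values were seen.

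The median distance from a member's 5' end to the nearest thresholded summit was 33590 bp, against 43618 bp over all coding genes and 1101 bp in the cytosolic set. Within 1000 bp on either side there was 1 member (1.43%, beside 4.1% of coding genes and 38 of 78 cytosolic genes). This was mrps-21, on chromosome IV from 4659049 to 4659517 on the minus strand, with a summit at 4658931, beyond its 3' end. The peak's signal was 81.8, and replicate 1 scored 992 there but replicate 2 scored 37. Just farther out, mrps-28 had a thresholded summit at -1014 bp, inside the neighbouring gene Y43F8C.7 (signal 112). Replicate 1 scored 1000 there and replicate 2 scored 241. The gene mrpl-51 had one 1245 bp downstream of its 5' end and beyond its 3' end (signal 76.2), with 1000 in replicate 1 but 29 in replicate 2. Both genes were named after their values were seen.

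The members were spread over the autosomes, with 22 on III, 15 on I, 12 on II, 11 on IV and 10 on V, and none on X. Chromosome III held the most members, and 12 of the 22 there (54.5%) had a ranked summit, beside 50.3% of its coding genes. It also had the highest share of coding genes with a thresholded peak (4.66%), but no member there had one. On IV it was 10 of 11 (90.9%), beside 40%.

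The sequence before the 5' end showed how these genes are annotated. Trans-splicing joins a leader after an AG, most often in the form TTTCAG, and the last 6 bases before the 5' end are in capitals here.
mrpl-28 (chrII:156000-156039, strand -): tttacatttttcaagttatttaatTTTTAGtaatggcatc
mrpl-55 (chrIV:443955-443994, strand +): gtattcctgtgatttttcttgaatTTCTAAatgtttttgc
mrps-35 (chrV:18981276-18981315, strand +): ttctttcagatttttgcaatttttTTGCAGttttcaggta
mrps-21 (chrIV:4659508-4659547, strand -): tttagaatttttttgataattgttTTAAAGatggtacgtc
rpl-3 (chrIII:3867824-3867863, strand +): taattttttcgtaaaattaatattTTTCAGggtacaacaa
rpl-35 (chrIII:7855104-7855143, strand +): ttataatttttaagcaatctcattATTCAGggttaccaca
An AG stood directly before the 5' end of 54 of 70 members (77.1%), 66 of 78 cytosolic genes (84.6%) and 27.6% of all coding genes, and TTTCAG before 25 (35.7%), 38 (48.7%) and 12.3%. In operon-like members an AG stood there in 25 of 27 (92.6%), and in the other members in 29 of 43 (67.4%). The share over all operon-like coding genes was not computed. At mrpl-55 and mrps-21 the annotated 5' end is the first base of an ATG.

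Short motifs were read on both strands from 250 bases before to 50 after the 5' end, and none of the motifs contains another. CTGCGTCT was found at 3 members (4.29%), mrpl-20, mrpl-36 and mrps-7, and at 3.54% of coding genes. CGCGCC was found at 7 (10%) and at 4.59%. TTGGCGC was found at none of the 70 and at 2.17% of coding genes, and GAGAGAGA at none and at 3.54%. TTTCAG on either strand was found at 47 (67.1%) and at 51.7%. The window spans the bases directly before the 5' end, so the 47 include the 25 members with TTTCAG there. It is therefore not a separate result from that count. The median GC content of these windows was 32.3% in the members, 33% in the cytosolic set and 34.3% over all coding genes.

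Other genes that mitochondria need were read from 7 lists. Over all coding genes the share with a thresholded peak was 2.79%. The respiratory chain and ATP synthase, most of whose subunits are also made in the cytosol, had a thresholded peak at 12 of 71 genes (16.9%). The highest signals were at cox-5A (206), cox-5B (186), atp-1 (123) and ndub-8 (114), each with a score of 1000 in both replicates. Protein import had 2 of 19 (10.5%), ddp-1 (139) and tomm-20 (75.8). The scores in replicates 1 and 2 were 1000 and 938 at ddp-1, and 801 and 355 at tomm-20. Mitochondrial chaperones and proteases had 2 of 10 (20%), hsp-6 (89.9), the mitochondrial HSP70, and phb-2 (73.5), a prohibitin.

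Within mitochondrial protein synthesis, the tRNA synthetases and tRNA modifying enzymes had 3 of 19 (15.8%, beside 2.79% of all coding genes). These were mtcu-2, an enzyme that modifies mitochondrial tRNA (269), ears-2 (102) and yars-2 (76). The scores in replicates 1 and 2 were 1000 and 1000 at mtcu-2, 1000 and 523 at ears-2, and 240 and 985 at yars-2. Of 13 translation factors listed 6 were found by name, of 12 other proteins of or around the ribosome 6, and of 7 genes for mitochondrial DNA replication and transcription 6, and none of those found had a thresholded peak. With 6 genes, a count of 0 allows large shares. The genes ucr-1 and mtrr-1 each stand in 2 lists. Genes were matched to the lists by name only, and whether mtrr-1 acts in mitochondrial protein synthesis was not checked.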

How the data were processed

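Peak lists from chromatin immunoprecipitation of EGFP-tagged C17E4.6 in 2 replicates were used, with assembly ce11 per the labels. Aligner and caller: not given in the sources used here. The deposited text records name the alignments of 1 or both replicates as the source of a list, with 1 file common to all lists and another for thresholded lists, whose contents the records do not give. The score deposited by the authors followed the −log10 IDR deposited in the ranked lists, as a multiple of it capped at 1000, to within 1 unit. The signal is the authors' own, on a scale that is not stated. No list held read counts, and 16 columns of the 2 series-wide ranked lists, unlabelled as to replicate, were set aside. Combined lists were pooled by the authors.

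Coordinates were converted to start at 1. Genes came from Ensembl release 115 and sequences and product names from RefSeq, both of WBcel235, and no peak ran past a chromosome end. For each gene the summits in the window were counted and the best score was kept (Python 3.11.15, pandas 2.3.3). An operon-like gene had a same-strand gene whose end lay at most 500 bp before its 5' end or overlapped it by at most 50 bp. The code was tested on simulated data. The members and the lists were chosen with earlier results of these data known, so no p-value is given. The genes named were the 12 members of highest combined score, members at an IDR of 0.05 or less in a replicate, members with a thresholded summit within 1000 bp, members with no summit in 3 lists if 5 or fewer, and up to 4 genes per list, and others are marked as named later. Alternatives were narrow (250 and 100 bp) and wide (1000 and 500 bp) windows, the conservative lists, each replicate alone, peak overlap, all transcripts' 5' ends, 1 gene per peak, and ranked peaks with a passing score.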

Additional observations from a re-analysis of the deposited data

How the results depend on the processing

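The count of 0 members with a thresholded summit was the same in the wide window, in the conservative list and with each replicate alone. It was also 0 with peak overlap and with every transcript's 5' end. The narrow window and 1 gene per peak gave 0 too, but they can only remove summits, so that outcome was fixed in advance. So was the 0 with all ranked peaks of a passing score, 830 or more, since the highest combined score of a member was 507. The number with a ranked summit fell from 44 to 29 in the narrow window (25.2% of coding genes there), rose to 58 in the wide window (63.4%) and 53 with peak overlap (52.7%), and ran from 30 to 42 with 1 replicate left out. The median best score of 28 was 0 in the narrow window, 88.5 in the wide window, 56.5 in the conservative list, 64 with peak overlap and 14 with 1 gene per peak, and ran from 0 to 19 with 1 replicate left out. Over all coding genes that median also rose, from 0 to 28, in the wide window and with peak overlap, and it was 0 in the other settings. The members at an IDR of 0.05 or less rose from 0 to 2 in the wide window (mrpl-12 and mrps-35, beside 6.01% of coding genes). They rose to 1 in the conservative list (mrpl-17, 675, beside 4.12%) and to 1 with peak overlap (mrpl-12, beside 4.96%). The wide window of mrpl-12 takes in the summit of its head-to-head partner Y39A1A.22, which had a score of 738. That gain can therefore not be assigned to mrpl-12 alone. The cytosolic genes with a thresholded summit fell from 25 to 7 in the narrow window and ran from 13 to 19 with 1 replicate left out, the lower without replicate 1, and those at an IDR of 0.05 or less fell from 29 to 7 in the narrow window. None of the 12 members of highest score reached 830 under any alternative, but single scores varied widely: mrpl-17 had no summit in the narrow window, mrpl-50 none without replicate 1, and mrps-35 ran from 47 without replicate 1 to 598 in the wide window. The causes were not tested. No paired analysis was possible because there is 1 group.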
